A study of Drosophila melanogaster with 90 samples.

Results

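The genes described here encode subunits of the mitochondrial respiratory chain and of ATP synthase in Drosophila melanogaster. They were chosen by name: every probe set of the array with a single gene symbol that starts with ND- (complex I), Sdh (complex II), UQCR- (complex III), COX (complex IV) or ATPsyn (complex V). The rule used no measured value and found 81 probe sets of 73 genes, out of 18769 probe sets and 11981 genes with a symbol on the array. Of these, 51 genes with 59 probe sets are the core subunits, 21 genes with 1 probe set each are paralogs, named like a core gene with L, L1 or L2 added, and 1 gene, Sdhaf3, is an assembly factor of complex II. The core genes divide into 27 of complex I, 3 of complex II, 4 of complex III, 7 of complex IV and 10 of complex V.

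Complexes I, III and IV of the inner mitochondrial membrane pass electrons from NADH to oxygen and pump protons, complex II feeds in electrons from succinate without pumping, and complex V uses the proton gradient to make ATP. All members are nuclear genes, whose products join subunits encoded by mitochondrial DNA in complexes I, III, IV and V, and no probe set of a mitochondrially encoded gene was found under its usual symbol. At the end of metamorphosis the indirect flight muscle, which depends on oxidative phosphorylation, fills the thorax. Many of the paralogs are known in the fly for expression in the testis.

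The study asked how altered gravity during metamorphosis changes gene expression, and whether less favourable surroundings alter the response. Pools of Oregon R (wild type) pupae were collected just before eclosion and each pool was hybridised to 1 array, giving 90 arrays in 32 groups of 2 to 4, which the labels call biological replicates. A random positioning machine (RPM, 20 arrays) simulated 0g, a superconducting magnet (30 arrays) gave positions 0g*, 1g* and 2g* that also carry a strong magnetic field, and a large diameter centrifuge (LDC, 40 arrays) gave 12g, 6g and a rotational control at its axis. In the magnet the field was stronger at 1g* than at 0g* and 2g*. Each facility had its own external 1g controls. The surroundings were an open container at constant temperature (no constraint), a cold step before exposure (ΔT), a closed container that limits oxygen (↓O2, called hypoxia by the study), or both. The external 1g controls of the magnet covered all 4 surroundings, its exposed pupae only the closed container, the RPM had no group with ↓O2 alone, and the LDC covered all 4. All groups are whole animals of 1 wild type strain, so fewer cells of a type and less RNA per cell cannot be told apart.

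The LDC samples came from a first experiment (19 arrays) and a second one (21 arrays). In its closed container all 12g and 6g arrays belong to the second and all 1g and rotational controls to the first, so a difference between them cannot be told apart from one between experiments. In the open container the 12g arrays are from the first and the 6g arrays from the second. There both kinds of control hold 1 array from the earlier run and 2 from the later one, which links them. Within the second experiment the labels and a marker set are at odds for the closed 12g arrays. Among arrays of the second experiment the mean of 15 genes named Acp, 14 of them seminal proteins of the male accessory gland, was 5.43 to 6.20 on the 8 arrays without the cold step at other positions and 9.04 to 10.50 on the 8 with it. It was 8.16 to 9.64 on the 3 closed 12g arrays labelled as without the cold step, and 6.21 and 7.18 on the 2 labelled as with it. The study's own list names those 2 arrays with the letter it otherwise uses for pupae without the cold step, and the title of 1 of them leaves out the surroundings. On arrays of the first experiment the mean of these 15 genes did not follow the cold step in 1 direction. At 12g in the open container it was 5.67 and 6.39 without and 6.35 to 6.91 with the cold step. Open 1g controls had 5.99 without and 9.10 with it, and closed 1g controls 6.77 to 7.46 without and 5.89 and 5.98 with it. Groups follow GEO's labels here, the closed 12g groups are called by their labels, and a mix-up was not tested. Values are log2 intensities, on which a difference of 1 is a factor of 2. Array medians were 5.03 to 5.15 in the RPM, 4.99 to 5.11 in the magnet and 6.37 to 6.53 in the LDC, so levels were compared only within a facility. Among the RPM 1g controls without constraint, replicates 1 and 2 stood low for the members, and results that rest on them are given with and without them. Marker genes of flight muscle (17), testis (25), male accessory gland (15) and fat body (3) were measured to follow the makeup of the pools.

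In the RPM 55 of the 59 core probe sets, and in the magnet and LDC 54, lay above the array median on every array. The exceptions were ND-B12, ND-B8, UQCR-11, 1 of 3 probe sets of COX7B and, in the magnet and LDC, 1 of 2 probe sets of COX7C. Intensities of different probe sets do not rank RNA amounts, and the complexes here follow the gene names alone. As a description, the highest intensity in each complex so assigned was that of ND-MLRQ for complex I, SdhC for complex II, UQCR-6.4 for complex III (UQCR-14 in the magnet), COX7B for complex IV and ATPsynbeta for complex V (ATPsynC in the magnet). Of the 21 paralogs, 18 were above the array median on every RPM array, 15 on every magnet array and 11 on every LDC array.

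Replicates were close for the core and less so for the paralogs. The SD within groups, pooled over a facility, had a median over the 59 core probe sets of 0.19 in the RPM, 0.12 in the magnet and 0.17 in the LDC. For the 21 paralogs it was 0.27, 0.43 and 0.45. The range of a probe set's group means had a core median of 0.74 in the RPM, 0.34 in the magnet and 0.74 in the LDC, against 0.67, 0.70 and 1.89 for the paralogs. The widest core range in the magnet was that of ND-ASHI (0.94), an accessory subunit of complex I. The widest among paralogs in the LDC was that of COX7AL (2.64).

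The first question was what the cold step did to these genes at normal gravity. In the external 1g controls of the RPM in the open container, core subunits of all 5 complexes were higher after the cold step. Of the 59 core probe sets 51 rose, none fell, and the median difference over the core genes was 0.69, against 0.05 over all genes. The test was limma's moderated test with Benjamini-Hochberg adjustment over 18769 probe sets, at adjusted p under 0.05, and among all probe sets it called 7.07% higher. By complex, 27 of 30 probe sets of complex I rose (median 0.81), 3 of 3 of complex II (0.64), 3 of 4 of complex III (0.47), 7 of 10 of complex IV (0.55) and 11 of 12 of complex V (0.55). Of the paralogs 2 of 21 rose, and their median was 0.32.

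The mean of the 51 core genes on each array shows which arrays carry this. Without constraint the 1g arrays read 10.58, 10.37 and 10.99, and after the cold step 11.37, 11.29 and 11.28. The groups did not overlap, and the first 2 arrays without constraint were the lowest of the 20 RPM arrays. The exposed 0g pupae without constraint, at 11.13, 11.01 and 11.02, lay between both control groups. With cold step and closed container the 1g controls read 11.36, 11.47, 11.11 and 11.13.

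**Figure D1:**
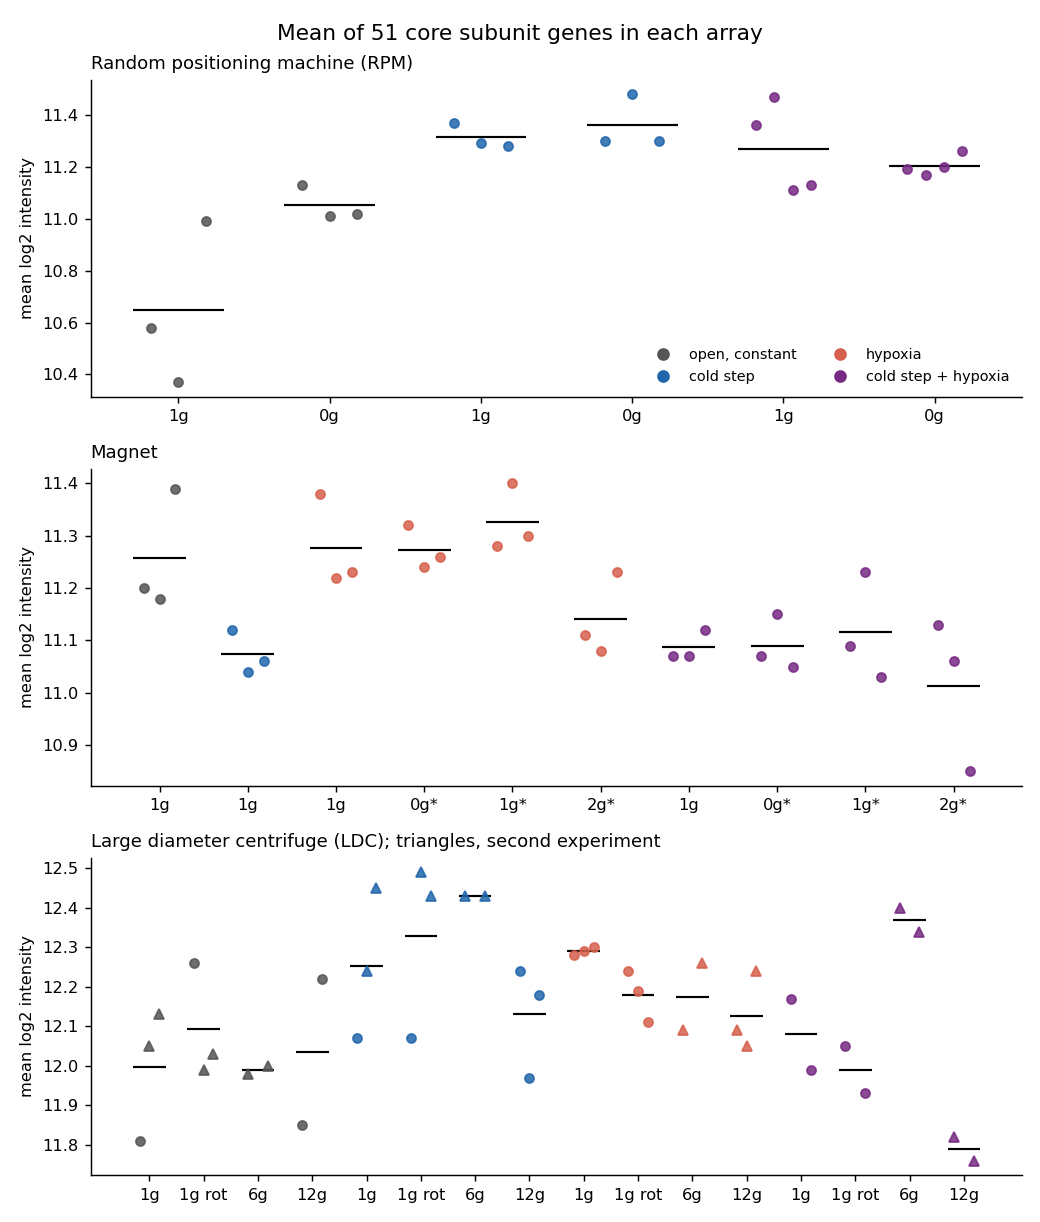
Mean log2 intensity of the 51 core genes (vertical axis) on each of the 90 arrays, by group (horizontal axis), in the RPM, magnet and LDC, with the group mean as a bar, colours for the surroundings (hypoxia, the closed container) and triangles for arrays of the second LDC experiment. Replicates 1 and 2 of the RPM 1g controls without constraint (10.58 and 10.37) lie below all other RPM arrays, and the LDC 12g arrays with cold step and closed container (11.82 and 11.76) lie below the 6g arrays of the same surroundings (12.40 and 12.34).

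In complex I the smallest p-values went to ND-B17, a membrane arm subunit, and to ND-51 and ND-20, which carry the flavin and an iron-sulfur cluster of the electron path. ND-B17 read 9.80, 9.61 and 10.09 without constraint and 11.19, 11.01 and 11.10 after the cold step. The groups were far apart, and the difference was 1.27 (SE 0.187, adjusted p = 0.00115, limma). Its other probe set rose by 0.85. ND-51 rose by 1.04 (SE 0.166), ND-20 by 0.83 (SE 0.133) and the accessory subunit ND-B17.2 by 0.98 (SE 0.160), with adjusted p of 0.00176, 0.00176 and 0.00191. All 3 probe sets of ND-ACP, the mitochondrial acyl carrier protein that is also a complex I subunit, rose (0.70 to 0.97).

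Complex II, succinate dehydrogenase, was represented by SdhB, its iron-sulfur subunit, and by the membrane anchors SdhC and SdhD. SdhC read 11.07, 10.72 and 11.35 without constraint and 11.97, 11.86 and 11.96 after the cold step, a rise of 0.88 (SE 0.142, adjusted p = 0.00178, limma). No array of one group reached the other. SdhB rose by 0.64 (SE 0.162) and SdhD by 0.63 (SE 0.161), with adjusted p of 0.0148 and 0.0155.

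In complex III, cytochrome bc1, UQCR-6.4 read 12.01, 11.84 and 12.46 without constraint and 12.88, 12.76 and 12.85 after the cold step. These small accessory subunits moved together: UQCR-6.4 rose by 0.73 (SE 0.133, adjusted p = 0.00318, limma), UQCR-14 by 0.54 (SE 0.124, adjusted p = 0.00915) and UQCR-Q by 0.40 (SE 0.119, adjusted p = 0.0326). The fourth, UQCR-11, differed by -0.03 and is among the probe sets not above the array median.

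Complex IV, cytochrome c oxidase, was led by COX7C and COX7B, small nuclear subunits. The brighter COX7C probe set read 11.36, 11.30 and 11.69 without constraint and 12.35, 12.27 and 12.31 after the cold step, a rise of 0.86 (SE 0.132, adjusted p = 0.00135, limma). COX7B rose by 0.82 (SE 0.131, adjusted p = 0.00176) and COX8 by 0.69 (SE 0.123, adjusted p = 0.00264). COX7AL2, a paralog by name, rose by 1.08 (SE 0.190, adjusted p = 0.0026), from 11.46, 11.10 and 11.97 to 12.67, 12.54 and 12.55. Its groups did not overlap. COX4 did not pass the test (0.30, adjusted p = 0.189).

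In complex V, ATPsyngamma and ATPsyndelta form part of the rotating central stalk, ATPsynbeta holds the catalytic sites and ATPsynB is part of the peripheral stalk. The brighter ATPsyngamma probe set read 11.72, 11.58 and 12.15 without constraint and 12.56, 12.52 and 12.56 after the cold step, a rise of 0.73 (SE 0.126, adjusted p = 0.00233, limma). ATPsynbeta rose by 0.63 (SE 0.114), ATPsyndelta by 0.66 (SE 0.122) and ATPsynB by 0.59 (SE 0.122), with adjusted p of 0.00294, 0.00333 and 0.00542. ATPsynO alone of the 12 probe sets did not pass (0.38, adjusted p = 0.0558).

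Some genes around the respiratory chain also changed in this comparison. Of 7 probe sets of complex III and V genes and electron carriers named outside the rule, 4 rose: ox (0.95), a small complex III subunit, RFeSP (0.80), the Rieske iron-sulfur protein, Cyt-b5 (0.56) and blw (0.37), the alpha subunit of ATP synthase. Of 10 probe sets of the citric acid cycle 6 rose, led by Idh3b, a subunit of isocitrate dehydrogenase (1.02, adjusted p = 0.000476, limma). Of 14 of the hypoxia and glycolysis list 6 rose and all are glycolytic enzymes: Pgk (0.92), Pfk (0.86), Eno (0.75), Pgi (0.65), Ald1 (0.63) and Gapdh1 (0.60). Of 12 of carriers 2 rose, Mpcp1, a phosphate carrier (1.40), and Ucp4A, an uncoupling protein homologue (0.51). Of 5 genes listed for assembly ttm50, a subunit of the inner membrane protein translocase, rose, as did Surf1, CIA30 and Scox, assembly factors of complexes I and IV, and Sirup fell (-1.44, adjusted p = 0.0254). Of 9 regulator probe sets only TFAM, which packages mitochondrial DNA, rose (0.66, adjusted p = 0.00353).

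Tissue markers moved too. Of 25 flight muscle probe sets 21 rose (median 0.52), and the log2 of their summed level went from 16.20 to 16.76 without constraint to 16.90 to 16.93 after the cold step. All 3 fat body probe sets, Fbp1, Fbp2 and Lsp2, fell (median -0.61, summed level 14.38 to 14.80 against 13.82 to 14.18). Of 25 testis markers 3 rose (summed level 13.41 to 13.97 against 14.04 to 14.37), and none of 15 genes named Acp, accessory gland proteins apart from the cuticle gene Acp65Aa, was called, with 8 at an unadjusted p under 0.05 (mean level 4.39 to 5.82 against 5.51 to 6.56). Midgut enzymes had 1 of 19 higher and 2 lower, neurons 1 of 11 higher, ovary genes 0 of 9 and the housekeeping genes 0 of 2 called, with none of the ovary and housekeeping genes at an unadjusted p under 0.05. The part of tissue makeup in the rise of the members was not tested.

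The calls depended on 2 arrays. Without both low 1g arrays no member was called, 31 were at an unadjusted p under 0.05 and the core median was 0.29. Leaving out 1 array at a time left 34 to 56 members called, with 34 when replicate 2 of the controls without constraint was left out, and a fit of only the compared groups called 33. In the exposed 0g pupae, which share no array with these controls, the same cold step gave a core median of 0.31, with 0 members called and 33 core probe sets higher at an unadjusted p under 0.05. Of all 18769 probe sets 1335 were higher at that p.

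**Figure D2:**
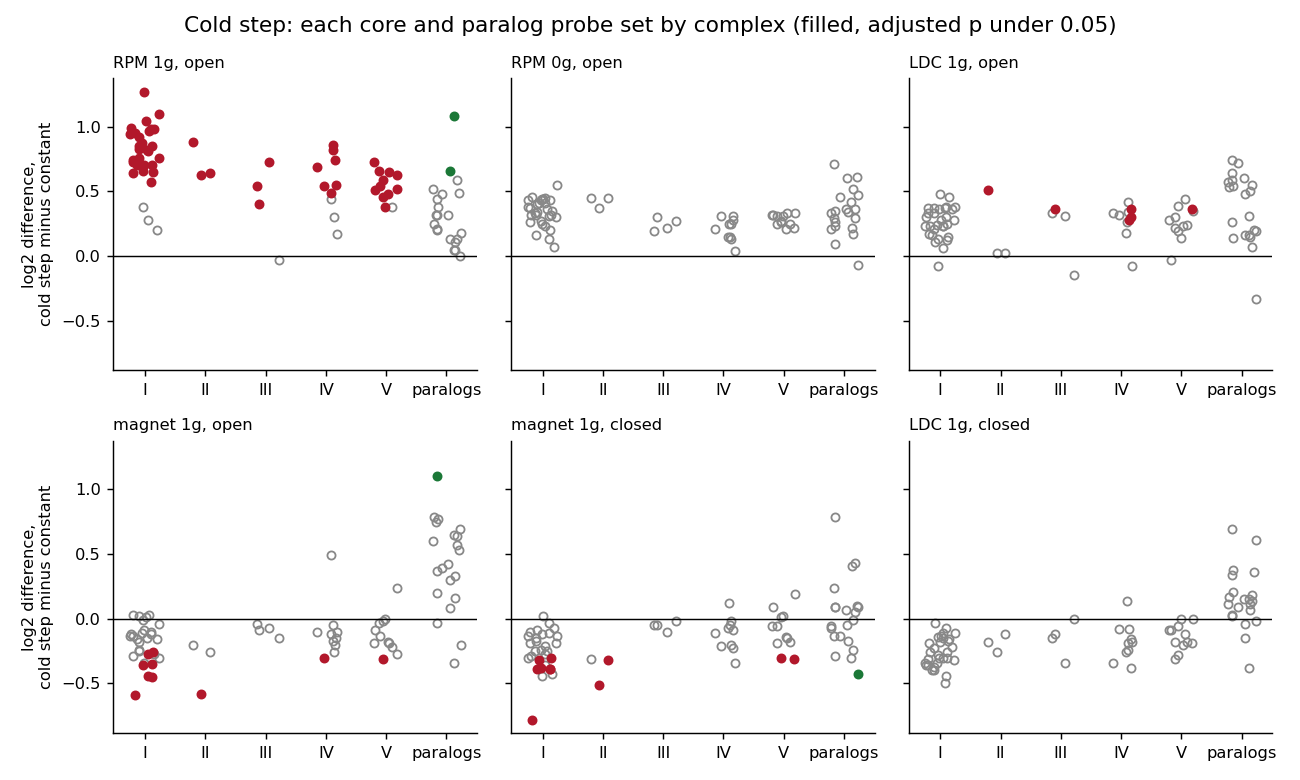
Log2 difference of each core and paralog probe set, cold step minus constant temperature (vertical axis), by complex with the paralogs set apart (horizontal axis), in 6 comparisons: RPM 1g and 0g, LDC 1g and magnet 1g in the open container, and magnet and LDC 1g in the closed container. Filled points passed the test (51 core probe sets higher in the RPM 1g panel, 6 higher in the open LDC panel, 10 and 11 lower in the open and closed magnet panels), and open points did not.

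Simulated microgravity on the RPM was then compared with its 1g control. Without constraint no member was called by limma, but 47 members were at an unadjusted p under 0.05. Of these, 42 were core probe sets and all 42 were higher at 0g, with a core median of 0.42 against -0.01 over all genes, where 7.75% of all probe sets were higher at that p. The paralogs had a median of -0.27. Of 25 flight muscle probe sets 10 were higher and 1 lower at an unadjusted p under 0.05 (median 0.22), and of 25 testis markers 1 was higher and 7 lower (median -0.27). Their part was not tested. Among members above 0 the smallest p-values belonged to COX7B (0.68, adjusted p = 0.0925), the brighter COX7C probe set (0.61, adjusted p = 0.108) and ND-B17 (0.87, adjusted p = 0.108). ND-B17 read 10.87, 10.55 and 10.68 at 0g, above all 3 controls. Among members below 0 they belonged to SdhBL (-0.79, adjusted p = 0.197), ND-B14.5AL (-0.56) and UQCR-14L (-0.38), paralogs of an iron-sulfur subunit, a complex I and a complex III accessory subunit.

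This comparison uses the same 1g controls as the cold step above, so the 2 results are not independent. Without both low arrays the core median at 0g was 0.05, with 4 members at an unadjusted p under 0.05, whereas without the third 1g array 43 members were called, where 1.15% of all probe sets were higher and 0.703% lower. After the cold step the 0g arrays (11.30, 11.48 and 11.30) and their controls overlapped in the core mean and no member was called. With cold step and closed container none was called either, with 1 core probe set at an unadjusted p under 0.05.

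In the magnet the cold step went with lower, not higher, core levels. In the open 1g controls the core mean was 11.20, 11.18 and 11.39 at constant temperature and 11.12, 11.04 and 11.06 after the cold step, and in the closed 1g controls 11.38, 11.22 and 11.23 against 11.07, 11.07 and 11.12. In both containers every array after the cold step was below every array without it. The steps were small, with core medians of -0.17 open and -0.18 closed. Of the 59 core probe sets 10 fell and none rose in the open controls, where 10.6% of all probe sets were called lower and 11.2% higher, and 11 fell in the closed controls, where 7.92% were called lower.

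A few members recurred in the magnet comparisons, the first of them SdhD, a membrane anchor of complex II. It read 11.24, 10.93 and 11.24 in the open controls without and 10.71, 10.45 and 10.51 with the cold step, a fall of 0.58 (SE 0.107, adjusted p = 0.000225, limma). In the closed controls it read 11.23, 11.24 and 11.13 without and 10.75, 10.66 and 10.66 with the cold step (-0.51, adjusted p = 0.00158). The exposed pupae, which share no arrays with these controls, were also lower after the cold step: by 0.61 at 0g*, 0.46 at 1g* and 0.54 at 2g*. Over the 15 arrays without the cold step SdhD lay between 10.93 and 11.24, and over the 15 with it between 10.39 and 10.85, with no overlap. In the RPM controls the difference in SdhD had the opposite sign (0.63, above).

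ND-ASHI, an accessory subunit of complex I, differed in the same direction. It read 11.70, 10.75 and 11.84 in the open controls without and 10.88, 10.75 and 10.88 with the cold step (-0.59, SE 0.176, adjusted p = 0.0173, limma), so 1 array without the cold step lay as low as those with it. In the closed controls it read 11.69, 11.64 and 11.56 without and 10.73, 10.84 and 10.98 with the cold step (-0.78, adjusted p = 0.00315), with no overlap. At 0g*, 1g* and 2g* the differences were -0.61, -0.75 and -0.66, all past the test. SdhD and ND-ASHI were lower in 5 of 5 magnet comparisons of the cold step. These share no arrays with each other but come from the same fit, with the same variance for a probe set, so they are not independent tests. The sources used here do not say whether pupae with and without the cold step were exposed in the same run. A difference between runs would be common to all 5. ND-PDSW, ND-B16.6 and 1 of 2 probe sets of ND-B17, all complex I subunits, were lower in 4 of 5.

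**Figure D3:**
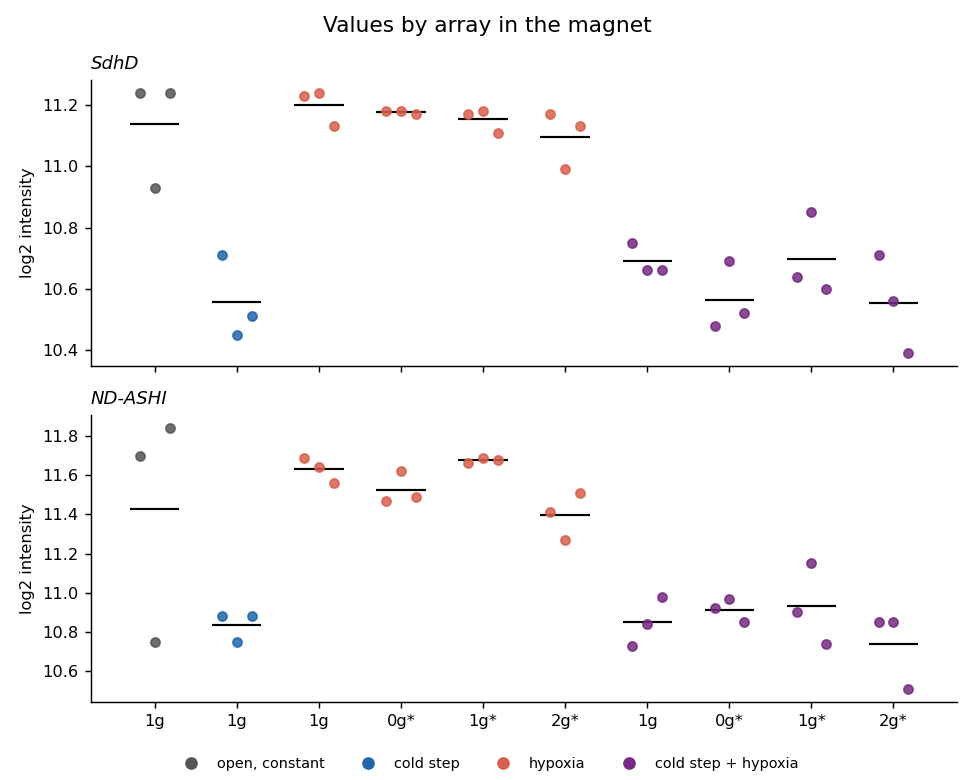
Log2 intensity (vertical axis) of SdhD and ND-ASHI on each of the 30 magnet arrays, by group (horizontal axis), with colours for the surroundings (blue and purple, after the cold step) and bars for group means. The SdhD arrays with the cold step (10.39 to 10.85) lie below those without it (10.93 to 11.24), and for ND-ASHI 1 open control without the cold step lies at 10.75.

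Other members that fell in the open magnet controls were ND-B17 (-0.45, adjusted p = 0.00948, limma), ND-B12 (-0.44, adjusted p = 0.0152) and ND-PDSW (-0.35, adjusted p = 0.0202) of complex I, COX5B (-0.30, adjusted p = 0.0296) of complex IV and ATPsynE (-0.31, adjusted p = 0.0269) of complex V. No complex III probe set was called. Of the 10 members that fell there, 7 also were among the 12 that fell in the closed controls: SdhD, ND-ASHI, ND-PDSW, ND-B16.6, ND-B17, ND-B22 and ATPsynE. In the closed controls SdhB (-0.32, adjusted p = 0.0342), ND-MNLL (-0.39) and ATPsynD (-0.31) fell as well, and so did the paralog ATPsynepsilonL (-0.43). In the open controls the paralogs had a median of 0.42 and ATPsynCF6L, a paralog of a stalk subunit, rose (1.10, adjusted p = 0.0441). The 11 calls of the open controls became 1 without replicate 3 at constant temperature, 18 without replicate 2, and 4 or 3 without replicate 2 or 3 of the cold step, and a fit of only those groups called 0. The 12 of the closed controls became 3 to 7 when any 1 array was left out.

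Among exposed pupae in the magnet 6 members were lower after the cold step at 0g*, 14 at 1g* and 2 at 2g*, where 2.88%, 11.1% and 3.95% of all probe sets were lower. At 1g* 12 of the 14 were core probe sets, and the others were ATPsynepsilonL (-0.63) and the complex II assembly factor Sdhaf3 (-0.62). One probe set of the catalytic subunit ATPsynbeta rose there (0.31, adjusted p = 0.0212), in a comparison with 12.8% of probe sets higher. Of the 12 members that fell in the closed 1g controls, 11 also fell at 1g*, which is 91.7% of the first list and 78.6% of the second. For this overlap, and for that between the open and closed controls, the share over all probe sets is not given here.

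Beside the fall of core members in the open magnet controls, Mpcp1 fell (-1.13, adjusted p = 7.6e-07, limma), with RFeSP (-0.40), sesB, the ADP/ATP carrier (-0.30), Mpcp2 (-0.29) and the glycolytic genes Pfk (-0.54), Ald1 (-0.49) and Pgi (-0.34). The assembly genes ttm50 (0.68) and Sirup (0.48) rose. Of 25 flight muscle probe sets 7 fell and 3 rose, and their summed level was 16.94 to 16.96 without and 16.76 to 16.80 with the cold step. Of 15 genes named Acp 14 fell and Acp65Aa rose, with a median of -1.95, and their mean level was 6.54, 8.15 and 6.55 without and 4.51, 4.40 and 4.26 with the cold step. No array of one group reached the other. Their summed level, 12.97 to 13.58 against 13.43 to 13.53, overlapped. In the closed controls too 14 fell, with a mean of 7.33 to 7.55 without and 4.72 to 5.35 with the cold step. Of 19 midgut enzymes 8 fell and 1 rose in the open controls. Testis markers summed to 12.94 to 13.86 without and 13.84 to 14.30 with the cold step. The part of these tissues in the differences was not tested.

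In the LDC the cold step in the open container went with higher core levels in some arrays. The 1g controls read 11.81, 12.05 and 12.13 in the core mean without constraint and 12.07, 12.24 and 12.45 after the cold step. Each first value is the array of the first experiment. The groups overlapped, but within each experiment every array after the cold step was above every array without it. Of the 59 core probe sets 27 were higher at an unadjusted p under 0.05, as were 1963 of all 18769, and the core median was 0.28. By the adjusted test 6 of the 59 rose, in a comparison with 6.55% of all probe sets higher. They were SdhC (0.51, adjusted p = 0.0238, limma), UQCR-Q (0.36, adjusted p = 0.0265), COX4 (0.28, adjusted p = 0.0245), COX7B (0.30, adjusted p = 0.0298), COX5A (0.36, adjusted p = 0.0476) and ATPsynD (0.36, adjusted p = 0.0397). Without the third array after the cold step none was called, and over the arrays of the second experiment alone 21 members rose, where 7.72% of all probe sets were higher. Tissue markers differed more. Of 15 genes named Acp 13 rose and 1 fell (median 4.28), and their mean level went from 5.99, 5.55 and 6.20 to 9.10, 9.66 and 9.62. Of 19 midgut enzymes 6 rose and 1 fell, with a summed level of 11.53 to 11.99 without and 12.64 to 13.94 with the cold step. For both sets the groups did not overlap. Fat body markers summed to 14.54 to 14.93 without and 12.61 to 14.29 with the cold step, flight muscle markers to 17.42 to 17.84 and 17.61 to 18.07, and their part was not tested.

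Exposed LDC pupae differed by position. At 6g, where both groups come from the second experiment, 29 core probe sets and 5 paralogs rose after the cold step in the open container (core median 0.43), where 10.4% of all probe sets were higher. ND-B17.2 led (1.06, SE 0.211, adjusted p = 0.000487, limma), with COX5A (0.69) and SdhC (0.84) in the other complexes. Of the 34 members, 28 had also risen in the RPM controls, which is 82.4% of these and 52.8% of the 53 members called there. As 53 of all 81 members were called there, a large overlap is expected of any list of members. The overlap over all probe sets is not given here. On the same arrays 13 of 15 genes named Acp rose and 1 fell (mean level 5.64 and 5.43 against 10.30 and 10.13), as did 4 of 19 midgut enzymes (summed level 12.28 and 11.95 against 13.29 and 13.12) and 3 of 25 testis markers (mean level 9.30 and 8.72 against 9.69 and 9.67). None of the 3 fat body markers was called (summed level 14.39 and 14.60 against 13.51 and 13.53, with 1 at an unadjusted p under 0.05). The part of these tissues was not tested. At 12g, where both groups come from the first experiment, no member was called and 4 were at an unadjusted p under 0.05, of which 3 were core probe sets.

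In the rotational controls 4 core probe sets rose (SdhC, ATPsynD, ND-B17.2 and ND-B17) while 8 paralogs fell, led by SdhBL (-1.49, SE 0.389, adjusted p = 0.0072, limma), where 9.85% of all probe sets were higher and 10.5% lower. Here the core mean was 12.26, 11.99 and 12.03 without and 12.07, 12.49 and 12.43 with the cold step, each first value being the array of the first experiment. Within the second experiment alone 42 members rose and 3 fell, where 13.6% of all probe sets were higher and 11.0% lower. With all arrays 12 of 15 genes named Acp and 13 of 19 midgut enzymes rose and 8 of 25 testis markers fell, and their part was not tested. In the closed LDC container the cold step turned the other way in sign: the 1g controls read 12.28, 12.29 and 12.30 without and 12.17 and 11.99 with it, with 0 members called by limma, 12 core probe sets lower at an unadjusted p under 0.05 and a core median of -0.19. Of all 18769 probe sets 1172 were lower at that p.

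By the adjusted test the closed container itself changed few members. In the LDC 1g controls at constant temperature 4 core probe sets were higher than in the open container, where 1.58% of all probe sets were higher: COX7C (0.65, SE 0.159, adjusted p = 0.0232, limma), ND-MNLL (0.59, adjusted p = 0.0406), ND-75 (0.74, adjusted p = 0.0428), the largest subunit of the complex I electron path, and ATPsynB (0.49, adjusted p = 0.0499). Of the 59 core probe sets 29 were higher and 1 lower at an unadjusted p under 0.05. Of all 18769 probe sets 1735 were higher and 2098 lower at that p. The core median was 0.26 against 0.00 over all genes. The core mean read 11.81, 12.05 and 12.13 open and 12.28, 12.29 and 12.30 closed, with no overlap. All closed controls belong to the first experiment and the open ones to both. With any 1 array left out 0 to 2 members were called. After the cold step 1 probe set of COX7B was lower in the closed container (-0.53, SE 0.107, adjusted p = 0.00529), where 1.07% were lower, and it was lost without the third open array or the second closed one. In the magnet, at either temperature, and in the RPM after the cold step the closed container changed no member by limma.

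Among comparisons between gravity levels, the one with the most core subunits called was 12g against 6g in the LDC with cold step and closed container, where both groups of 2 arrays come from the second experiment. It rests on the 12g arrays whose marker levels were at odds with their label. Core subunits of all 5 complexes were lower at 12g: 36 of 59 core probe sets fell, none rose, and 49 were at an unadjusted p under 0.05. The core median was -0.60 against 0.00 over all genes. Of all probe sets 3.6% were called lower, and 1695 of 18769 were lower at an unadjusted p under 0.05. By complex 20 of 30 fell in complex I (median -0.64), 1 of 3 in complex II (-0.43), 3 of 4 in complex III (-0.52), 7 of 10 in complex IV (-0.60) and 5 of 12 in complex V (-0.45). Of the paralogs COX7AL2 fell, again with the core (-0.83, adjusted p = 0.00704, limma), and the paralog median was -0.39.

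In complex I, ND-B14.5A, an accessory subunit, read 10.91 and 10.81 at 12g and 11.91 and 11.82 at 6g, with 11.55 and 11.32 in the 1g controls and 11.46 and 11.26 in the rotational controls of the first experiment. The controls lay between both exposed groups, and 12g was below 6g by 1.00 (SE 0.196, adjusted p = 0.00272, limma). ND-20 fell by 1.18 (SE 0.239), ND-B14.5B by 1.01 (SE 0.206) and ND-B17.2 by 1.00 (SE 0.211), with adjusted p of 0.00334, 0.00347 and 0.00436.

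SdhC read 12.08 and 12.01 at 12g and 12.87 and 12.87 at 6g (-0.82, SE 0.193, adjusted p = 0.00844, limma). UQCR-6.4 read 13.31 and 13.27 against 14.03 and 13.88 (-0.66, SE 0.152, adjusted p = 0.0075), and UQCR-Q (-0.50) and UQCR-14 (-0.54) fell with it. COX5A read 12.90 and 12.94 against 13.63 and 13.62 (-0.70, SE 0.151, adjusted p = 0.00483). None of these groups overlapped. COX8 (-0.72) and COX7B (-0.74) fell as well.

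In complex V ATPsynD, a peripheral stalk subunit, read 12.67 and 12.75 at 12g and 13.52 and 13.39 at 6g, a fall of 0.74 (SE 0.149, adjusted p = 0.0032, limma). ATPsynE (-0.54, adjusted p = 0.00332), ATPsyndelta (-0.65, adjusted p = 0.00974) and ATPsynO (-0.47, adjusted p = 0.0101) fell too, while ATPsynbeta and ATPsyngamma did not pass in either of their probe sets. Of the 37 members that fell here 35 had risen after the cold step in the RPM controls, which is 94.6% of these and 66.0% of the 53 of 81 members called there. With so many members called there, a large overlap is expected of any list of members, and the overlap over all probe sets is not given here.

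The call count rested on few arrays. Leaving out 1 array at a time gave 0 to 23 members, with 0 when replicate 1 of 6g was left out (41 at an unadjusted p under 0.05), and a fit of only these groups called 0, with 45 at an unadjusted p under 0.05. All 3 fat body probe sets rose at 12g (median 2.90, summed level 15.26 to 15.48 against 12.05 to 13.20), 11 of 15 genes named Acp fell (median -3.80, mean level 6.21 and 7.18 against 10.50 and 9.36) and 2 of 25 flight muscle probe sets fell (17.70 to 17.82 against 17.90 to 17.98). Testis markers had 0 of 25 called and none at an unadjusted p under 0.05. The part of tissue makeup in the lower core levels was not tested. Outside the rule ox (-0.85) and Ucp4A (-0.84) fell and Hph, the prolyl hydroxylase of the hypoxia pathway, rose (1.08).

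**Figure D4:**
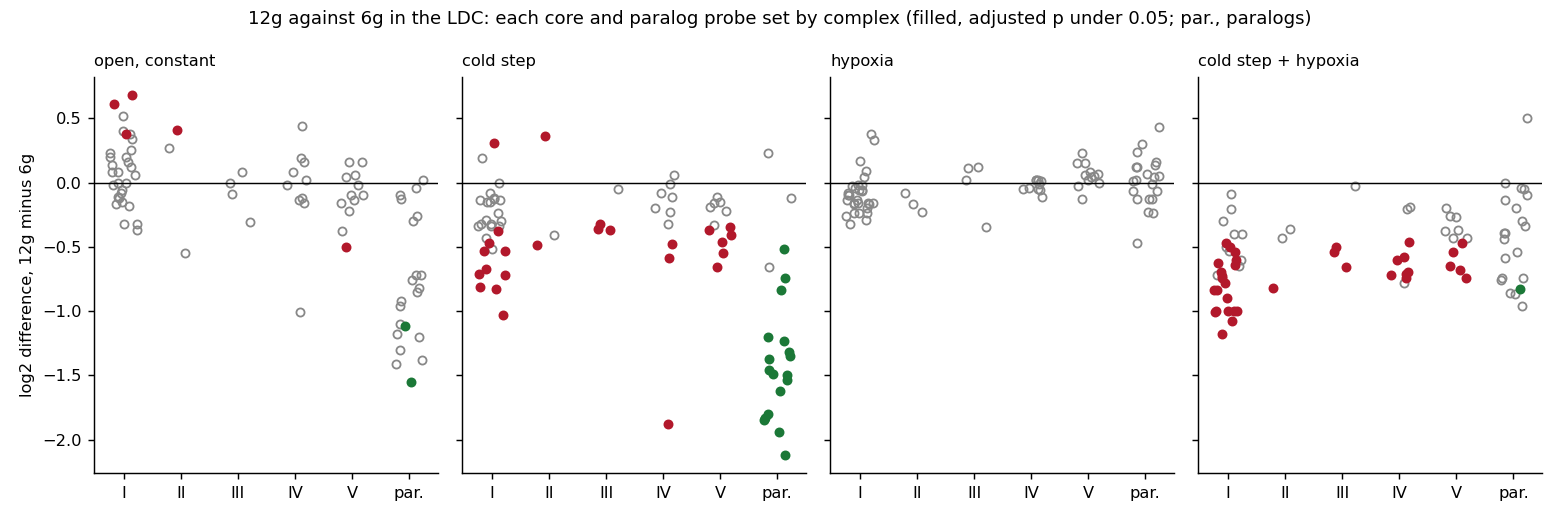
Log2 difference of each core and paralog probe set between 12g and 6g in the LDC (vertical axis), by complex with the paralogs set apart (horizontal axis), in the 4 surroundings, with filled points for probe sets past the test. With cold step and closed container 36 core probe sets fell, with the cold step alone 18 of 21 paralogs and 23 core probe sets fell, and in the closed container alone no core probe set was called.

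Against its own 1g controls neither position reached that size in these surroundings. At 12g no member was called by limma and 27 core probe sets were lower at an unadjusted p under 0.05 (core median -0.31). Of all 18769 probe sets 1313 were lower at that p. At 6g COX7B (0.60, SE 0.117, adjusted p = 0.00287), COX7AL2 (0.68, SE 0.188, adjusted p = 0.0281) and ND-13A, a complex I subunit (0.64, SE 0.173, adjusted p = 0.0274), were higher, with a core median of 0.30 and 2.45% of all probe sets higher. Both comparisons share the same 1g arrays, from the other experiment, and no call at 6g was left without replicate 1 of 6g or replicate 2 of 1g.

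With the cold step in the open container, 12g and 6g differed mainly in the paralogs. Of the 21 paralogs 18 were lower at 12g (median -1.37), and of the 59 core probe sets 23 were lower and 2 higher (median -0.32), where 19.5% of all probe sets were called lower and 23.5% higher and the median of all genes was -0.12. The 12g arrays come from the first and the 6g arrays from the second experiment. With a term for the experiment 3 core probe sets and 16 paralogs were called lower, where 13.8% of all probe sets were, and the 3 core probe sets and 15 of the paralogs are among those called lower without it. With array medians set equal 10 and 16 were called lower. The 43 members called became 12 and 21 without replicate 1 or 2 of 6g, and 27 without replicate 2 of 12g.

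UQCR-14L, a paralog of a complex III subunit, read 6.27, 7.31 and 7.19 at 12g and 9.16 and 8.93 at 6g, with 7.57, 8.32 and 7.80 in the 1g controls. The exposed groups did not overlap, and the difference was -2.12 (SE 0.389, adjusted p = 0.000371, limma). SdhAL, a paralog of the flavoprotein of complex II, fell as well (SE 0.314, adjusted p = 0.00107), ND-B14.5AL by 1.80, ND-24L by 1.62, COX7AL by 1.94 and COX6AL by 1.49. The dim COX7C probe set moved with them (-1.88, SE 0.410, adjusted p = 0.00141), from 8.54 and 8.28 at 6g to 5.76, 6.93 and 6.89 at 12g, while the bright one did not pass (-0.23, adjusted p = 0.291). Only ND-51L2, ATPsynepsilonL and ATPsynbetaL among the paralogs were not called. In the core ND-B8 (-1.03), ATPsynB (-0.66, adjusted p = 0.00287) and the 3 ND-ACP probe sets fell, and SdhD rose (0.36, adjusted p = 0.0255).

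The paralogs and the testis markers were high and low on much the same LDC arrays. In the comparison above 16 of 25 testis markers fell and 1 rose, with a median of -1.14 and a summed level of 13.99 to 14.92 at 12g against 15.78 to 15.85 at 6g, and 13 of 15 genes named Acp fell and 1 rose (mean level 6.35 to 6.91 against 10.13 and 10.30). Without constraint SdhBL, a paralog of the iron-sulfur subunit of complex II, read 8.04 and 7.07 at 12g, 9.29 and 8.59 at 6g, 8.79, 9.35 and 9.18 in the rotational controls and 8.45, 9.27 and 8.07 in the 1g controls. After the cold step it read 7.21, 7.95 and 7.74, then 8.86 and 9.11, then 8.14, 7.81 and 6.90, and then 8.40, 8.49 and 7.91 in the same order. Its 12g arrays were below its 6g arrays both times, and the rotational controls changed from high to low. In the mean of the 21 paralogs, the rotational controls read 8.56, 8.44 and 8.21 without constraint and 7.89, 7.81 and 7.05 after the cold step, with a testis mean of 9.33, 9.28 and 9.14 against 8.75, 8.68 and 7.89 on the same arrays. The sex makeup of the pools is not given in the sources used here, and the part of testis tissue in the paralog levels was not tested.

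**Figure D5:**
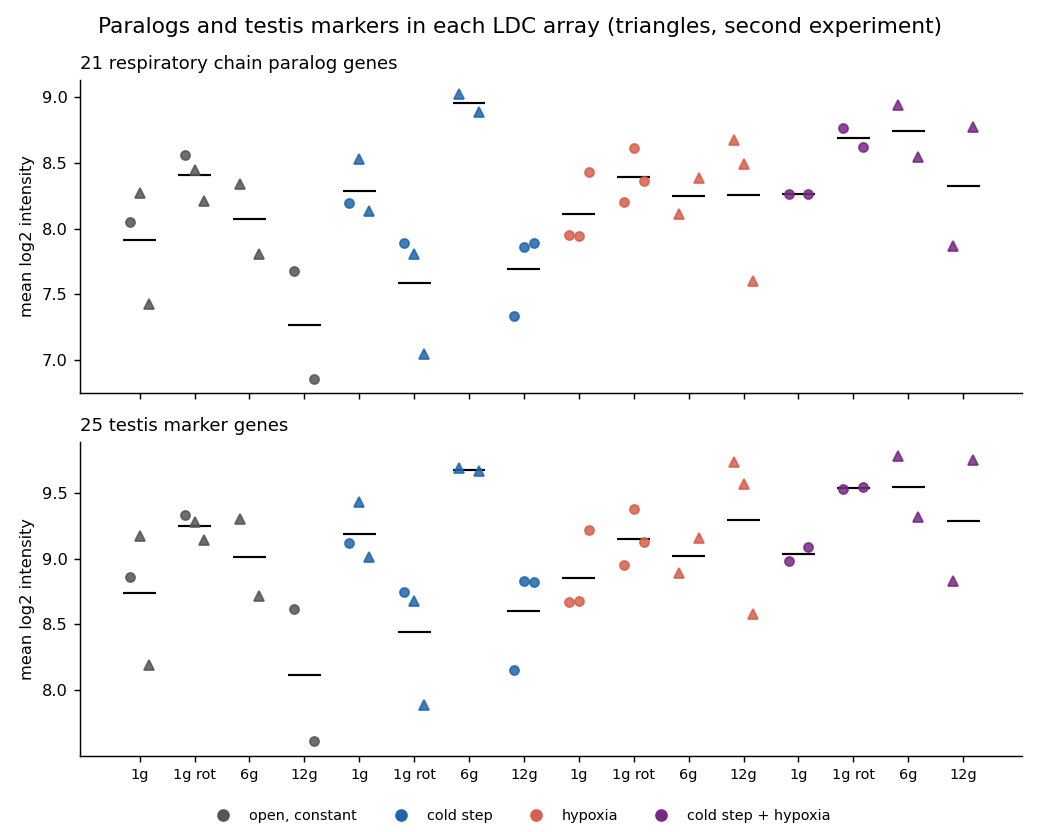
Mean log2 intensity (vertical axes) of the 21 paralogs (upper panel) and of the 25 testis markers (lower panel) on each of the 40 LDC arrays, by group (horizontal axis), with colours for the surroundings (hypoxia, the closed container), bars for group means and triangles for the second experiment. Both panels are low in the second 12g array without constraint (6.86 and 7.61) and high in the first 6g array after the cold step (9.02 and 9.69).

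Without constraint, 12g and 6g differed in 7 members, in a comparison with 6.88% of all probe sets higher and 6.28% lower. The 81 member probe sets were not called more often than these shares, and the core median was 0.00. ND-ASHI (0.61, adjusted p = 0.0352, limma), ND-B17.2 (0.68, adjusted p = 0.0386), ND-B12 (0.38, adjusted p = 0.0407) and SdhD (0.41, adjusted p = 0.0483) were higher at 12g. One probe set of ATPsyngamma (-0.50, adjusted p = 0.0496) and the paralogs COX7AL (-1.55, adjusted p = 0.0459) and COX6AL (-1.12, adjusted p = 0.0489) were lower. With a term for the experiment none of the members was called, and without replicate 1 of 12g 3 were higher and 8 lower. Of 25 testis markers 4 were lower at 12g (median -0.98), and their part was not tested.

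In the closed container at constant temperature, with both groups from the second experiment, 12g and 6g did not differ in any core probe set by limma, and none was at an unadjusted p under 0.05. The core median was -0.05. Sdhaf3 fell (-0.98, SE 0.223, adjusted p = 0.00275), from 8.08 and 8.36 at 6g to 7.36, 6.98 and 7.39 at 12g, where 6.56% of all probe sets were lower. It is a maturation factor for the iron-sulfur subunit of succinate dehydrogenase. Of 5 other assembly genes Scox (-0.73), Surf1 (-0.97), ttm50 (-0.78) and Sirup (-1.23) fell too, and of the citric acid cycle the 3 probe sets of ScsbetaG, a subunit of succinyl-CoA ligase. The carriers Mpcp1 (1.27), Mpcp2 (0.51) and sesB (0.35) rose, and 12 of 15 genes named Acp rose and 1 fell (mean level 8.16 to 9.64 at 12g against 5.70 and 5.79), on the 12g arrays whose marker levels were at odds with their label. Without replicate 2 of 6g Sdhaf3 was not called.

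Against the external 1g controls, altered gravity called members in 3 of 15 comparisons, and rotation or the magnetic field at 1g in 0 of 6. These were 12g with the closed container, 12g after the cold step and 6g with both, with 9 calls in all. With the container closed, the exposed arrays come from the second experiment and their 1g controls from the first. Experiment and response cannot be told apart there, and the closed 12g arrays are those whose marker levels were at odds with their label. In rotation against 1g both LDC groups hold arrays of the same experiments, so the counts for altered gravity and rotation do not compare like with like. With the closed container ND-B18 (-0.58, SE 0.168, adjusted p = 0.0195, limma), ND-B14.5A (-0.50, adjusted p = 0.0331), ND-B22 (-0.37, adjusted p = 0.0367) and ND-MNLL (-0.47, adjusted p = 0.0476), all complex I, were lower at 12g and 1 probe set of ATPsyngamma was higher (0.44, adjusted p = 0.0323), where 9.4% of all probe sets were lower and 8.14% higher. The 81 member probe sets were called less often than these shares, in either direction. In the same comparison 9 of 15 genes named Acp rose and 1 fell (median 2.33, mean level 6.77 to 7.46 at 1g and 8.16 to 9.64 at 12g), 4 of 25 testis markers rose, and 4 of 25 flight muscle probe sets rose and 1 fell. Their part was not tested. After another quantile normalization 12 were lower and 1 higher, and with array medians set equal 1 and 1. Leaving out 1 array at a time gave 0 to 8 calls, with 8 without replicate 3 of 12g. After the cold step SdhD was higher at 12g (0.40, SE 0.112, adjusted p = 0.0253), where 6.34% were higher, and after quantile normalization 1 member was higher and 1 lower. Here too the members were not called more often than all probe sets. All 12g arrays there are of the first experiment and the 1g controls of both. With a term for the experiment, or in a fit of only these groups, no member was called, and without replicate 1 of the 1g controls 1 was higher and 6 were lower. Of 15 genes named Acp 12 fell and 1 rose (median -3.50), and their part was not tested.

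In the other 12 comparisons of altered gravity with 1g, which include all 3 of the RPM, and in the 6 of rotation or field, no member was called by limma. Between exposed positions in the magnet 1 member was called in 6 comparisons: Sdhaf3 was lower at 2g* than at 1g* in the closed container (-0.59, SE 0.166, adjusted p = 0.0475), where 1.74% of all probe sets were lower. The field is stronger at 1g* than at 2g*, so field and effective gravity differ together in that comparison. In it 16 core probe sets, and 1394 of all 18769 probe sets, were lower at an unadjusted p under 0.05. The core median was -0.19. With 1 array left out 0 to 3 were called there, with 3 without replicate 3 of 2g*. Of 15 genes named Acp 12 were lower and 1 higher at 2g* (median -2.43), and their part was not tested.

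Whether the surroundings changed a response to gravity was tested directly in 18 interactions, of which 3 called a member. The response to 12g against 1g differed between closed and open container in 7 members, where 5.93% of all probe sets were higher and 8.53% lower. ND-B12 (-0.50, SE 0.148, adjusted p = 0.0286, limma), ND-B22 (-0.62, adjusted p = 0.0312), SdhD (-0.52, adjusted p = 0.0396), COX7C (-0.71, adjusted p = 0.0471) and ND-B14.5A (-0.70, adjusted p = 0.0499) had a lower response in the closed container. SdhBL (1.80, adjusted p = 0.0412) and ATPsyngamma (0.65, adjusted p = 0.0398) had a higher one. After another quantile normalization 10 were lower and 1 higher, and with array medians set equal 2 and 2. Leaving out 1 array at a time gave 0 to 18 calls, with 18 without replicate 3 of 12g in the closed container. The response of SdhD to 12g after the cold step was lower in the closed than in the open container (-0.66, SE 0.178, adjusted p = 0.0391, limma), where 2.09% of all probe sets were lower. With a term for the experiment no member was called there. That of ATPsynE to 6g in the closed container was higher with the cold step than without (0.51, SE 0.148, adjusted p = 0.0499), where 1.83% were higher. No member was called there with a replicate block, with equal array medians or without dim probe sets. All 12g interactions with the closed container rest on the 12g arrays whose marker levels were at odds with their labels. No interaction of the RPM or the magnet called a member.

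Probe sets of one gene did not always move together. Of the 41 comparisons without interactions, signs differed in 24 for the 3 probe sets of COX7B, in 24 for the 2 of COX7C, in 19 for ATPsynbeta, in 17 for ATPsyngamma, in 8 for ND-ACP and in 6 for ND-B17. Small differences around 0 are among these. Of the members called in the RPM cold step, the bright COX7C and COX7B probe sets rose by 0.86 and 0.82 and the dim ones read 0.44 and 0.17, which did not pass the test.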

How the data were processed

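The authors deposited log2 intensities of the Affymetrix Drosophila Genome 2 array, 1 column per array, made by RMA (background correction, quantile normalization and probe summary), and the submitters' processing notes also name limma; the versions are not given in the sources used here. Intensities carry no counts, so the number of arrays limits precision. Groups came from the labels, the LDC experiment of each array from the study's methods. Of 18769 probe sets 13646 had 1 gene symbol, 402 several and 4721 none. Only those with 1 were named, and all 81 members matched a current RefSeq symbol.

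Each facility was fitted separately over all its groups with limma 3.58.1 in R 4.3.3 (lmFit, eBayes, two-sided), with Benjamini-Hochberg adjustment over 18769 probe sets in each comparison and a call at adjusted p under 0.05. A list's median takes the probe set brightest in the facility for each gene. Nothing in the sources used here says whether pools of a group came from separate cultures, so p-values measure the spread between pools. Named were up to 4 called members per complex with the smallest p (with none called, 3 per direction), the paralogs and the brightest gene per complex. Numbers shared by groups were taken to pair samples where at least 3 were shared and every same-number correlation of deviations was above 0.1. This held in 3 of 41 comparisons (LDC 1g against rotation without constraint, LDC 1g with against without the cold step, and 2g* against 1g* with both constraints). There the block gave 0, 8 and 0 members called against 0, 6 and 0 without it. Some comparisons with only 2 shared numbers also lay above 0.1 and were not counted as paired. The members and lists were chosen with earlier results of these data known. Alternatives were a replicate block, an experiment term, 1 experiment only, another normalization, filters, other probe set rules and leaving out arrays, and, added after seeing the data, the cold step in exposed pupae, leaving out both low RPM arrays, and equal array medians. The code was tested on simulated data.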

Additional observations from a re-analysis of the deposited data

Results flagged for a closer look

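The sign of the cold step differed between facilities and containers in the mean of the 51 core genes of 1g controls. Every array after the cold step was above every array without it in the open RPM controls (0.67), and every such array was below in the open magnet controls (-0.18), the closed magnet controls (-0.19) and the closed LDC controls (-0.21). In the open LDC controls the groups overlapped (0.26). Within each LDC experiment, though, every open control after the cold step was above every one without it. Without the 2 low RPM arrays the RPM difference was 0.32, with the third control, at 10.99, below all 3 arrays after the cold step. The difference between facilities was not tested.

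Interactions of gravity with the surroundings called 7 members for 12g between closed and open container, 1 (SdhD) for 12g after the cold step between closed and open container, and 1 (ATPsynE) for 6g in the closed container between cold step and constant temperature. Of all probe sets 5.93% were higher and 8.53% lower in the 12g interaction at constant temperature. In that after the cold step 2.09% were lower, and in that of 6g 1.83% were higher. The 81 member probe sets were not called more often than these shares. The closed 12g arrays come from another LDC experiment than their 1g controls, so experiment and response cannot be told apart in the 12g interactions. In the 6g interaction both 6g groups come from the second experiment and both 1g groups from the first. A constant difference between experiments therefore cancels in it. With a term for the experiment the interactions called 1, 0 and 5.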

How the results depend on the processing

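The 59 comparisons were recomputed, for the number of members called and the median difference over all members. Apart from leaving out single arrays, 345 counts stayed within 1.5 times, 60 moved further and 2 turned in direction, and 198 medians moved by less than the spread between replicates, 14 by more and 1 turned. The cause was not tested except where the setting itself has fewer arrays. A fit of only the groups compared, which has few degrees of freedom, called 33 instead of 53 for the RPM cold step, 1 instead of 0 for 6g against 1g in the closed LDC container, and 0 for the open magnet cold step, 2g* against 1g* in the closed container, 12g against 1g after the cold step, 6g against 1g with both constraints, the open LDC cold step, both effects of the closed LDC container, 12g against 6g without constraint and with both constraints, and the 12g interactions of closed container with constant temperature and with cold step. Without both low RPM arrays the cold step called 0 with a median of 0.28 (0.59 with them), 0g without constraint had a median of 0.01 (0.32), and the RPM interactions of cold step and of both constraints had medians of -0.01 (-0.30) and -0.04 (-0.37). The cold step in exposed pupae called 0 at 0g in the RPM, 6 at 0g* and 2 at 2g* against 12 in the closed magnet controls, 0 at 12g, 34 at 6g and 12 in the rotational controls (4 higher, 8 lower) against 6 in the open LDC controls, and 1 at 6g in the closed LDC. Another quantile normalization gave 1 (from 0) for 2g* against 1g and 3 (from 1) for 2g* against 1g* in the closed magnet, 20 with a median of -0.23 (12, -0.13) for its cold step, 2 (1), 13 (5), 1 (0) and 8 (3) for 12g after the cold step, 12g closed, 12g and 6g with both constraints against 1g, 1 (0) for the closed LDC cold step, 13 (4) for the closed LDC container, a median of -0.27 (-0.38) for 12g against 6g after the cold step, and 11 (7), 5 (1) and 3 (1) for the 3 interactions. Equal array medians gave 19 (11) for the open magnet cold step, 0 (1) for 2g* against 1g*, 2 (5) for 12g closed against 1g, 1 (4) for the closed LDC container, 28 (43) for 12g against 6g after the cold step, and 4 (7) and 0 (1) for the interactions of 12g with the closed container and of 6g with the cold step. Trend and robust settings of eBayes gave 18 (11) for the open magnet cold step, 3 (1) for 2g* against 1g*, 10 (6) for the open LDC cold step and 6 for 12g against 6g without constraint, of which 2 were higher and 4 lower (4 and 3). Without paralogs the median of that last comparison was 0.00 (-0.10). Without dim probe sets the 6g interaction called 0 (1). The second LDC experiment alone gave 1 (0) for rotation after the cold step and 21 (6) for the open cold step.

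With a replicate block 12g by closed container called 4 (7) and 6g by cold step 0 (1), and no other count moved by over 1.5 times. With a term for the LDC experiment, estimated from the open controls alone, the counts were 0 (1) for 12g and 1 (0) for rotation after the cold step, 9 (5) for 12g closed, 3 (0) and 1 (3) for 12g and 6g with both constraints, 11 (6) for the open and 1 (0) for the closed cold step, 9 (4) for the closed container, 0 (7) and 20 (43) for 12g against 6g without constraint and after the cold step, and 1 (7), 0 (1) and 5 (1) for the interactions. The medians were 0.10 (-0.03) for 12g without constraint, -0.25 (-0.12) and -0.21 (-0.08) for 12g and 6g closed, 0.23 (0.35) for 6g with both, 0.09 (-0.10) and -0.19 (-0.38) for 12g against 6g without constraint and after the cold step, and -0.42 (-0.05) and -0.37 (-0.08) for the 12g interactions with constant temperature and cold step.

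Leaving out 1 array at a time gave these ranges of calls. In the RPM they were 34 to 56 for the cold step, 0 to 43 for 0g without constraint and 0 to 6 for the interaction with both constraints. In the magnet they were 1 to 18 and 3 to 7 for the open and closed cold step and 0 to 3 for 2g* against 1g*. In the LDC they were 0 to 22 for the open cold step, 0 to 2 and 0 to 7 for the closed container at constant temperature and after the cold step, 0 to 1 for 12g without constraint, 0 to 7 and 0 to 4 for 12g and rotation after the cold step, 0 to 8 for 12g closed, 0 to 2 for 6g with both, and 0 to 11, 12 to 41, 0 to 1 and 0 to 23 for 12g against 6g in the 4 surroundings. Interactions ranged over 0 to 18 and 0 to 1 at 12g, 0 to 0 and 0 to 1 at 6g and 0 to 1 for rotation. The direction of most calls turned for 12g against 6g without constraint without replicate 1 of 12g (11 calls, median 0.06), for 12g after the cold step without replicate 1 or 2 of 1g (7 and 1), and for 12g closed without replicate 2 of 12g (1). The medians that moved ranged from -0.46 to -0.20 and -0.57 to -0.22 for the RPM interactions, -0.15 to -0.04 for the open magnet cold step, -0.23 to -0.06 for the closed LDC cold step, -0.17 to 0.16 and -0.28 to -0.05 for 12g without constraint and after the cold step, 0.14 to 0.34 for 6g after the cold step, -0.15 to 0.03 for 6g closed, -0.15 to 0.04 for rotation with both, -0.23 to 0.06 and -0.43 to -0.30 for 12g against 6g without constraint and after the cold step, -0.24 to 0.01, -0.15 to 0.05 and -0.24 to 0.07 for the 12g interactions, 0.32 to 0.50 for that of 6g and -0.07 to 0.12 for that of rotation.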
